A study of Homo sapiens with 17 samples.

Results

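RNA recovered with the LINE-1 protein ORF1p was compared with RNA recovered in a mock immunoprecipitation (mock IP), across single repeat copies of the human genome and across repeat subfamilies. Single copies (loci) entered where the estimated counts summed to 100 or more over the 17 labelled libraries, which 347397 of 3594049 loci did. Subfamilies were taken by name, and 1074 of 1080 passed a filter on low counts and were tested. The series concerns how cancer cells limit the immune response to retrotransposon expression. Its RIP-seq libraries (RNA immunoprecipitation, sequencing of the RNA that stays bound to a protein captured from cell extract) were made from N2102Ep, an established human embryonal carcinoma line. There were 4 ORF1p RIP libraries and 3 mock IP libraries, whose descriptions carry the term mIgG. The 4 ORF2p RIP libraries and 6 total RNA libraries are given beside them. No treatment or genetic change other than the capture is named for any group. The ORF1p RIP libraries give their source as embryonal with no clone, whereas the other 13 libraries give N2102Ep clone 2/A6. The labels do not say that replicates came from separate cultures, so p-values reflect no more than how these libraries vary, which may be technical variation.

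LINE-1 (L1) is the one retrotransposon of the human genome that still copies itself. Its transcript encodes ORF1p, which coats the RNA and binds by preference the transcript it was made from, and ORF2p, the endonuclease and reverse transcriptase that writes the RNA back into DNA. L1HS is the human-specific subfamily that still jumps, L1PA2, L1PA3 and onwards are successively older primate subfamilies, and most copies of each are shortened at their 5′ end. Alu elements have no protein of their own and borrow that of L1, and the AluYa and AluYb subfamilies hold the recently active ones. HERVH and HERVK are endogenous retroviruses, remnants of past infections flanked by long terminal repeats (LTR7 for HERVH, LTR5 for HERVK), that are transcribed in pluripotent and embryonal carcinoma cells.

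Estimated counts in repeats came to 7693841 to 9125527 per ORF1p RIP library and 12703395 to 16271143 per mock IP library. Levels are in CPM, the estimated count divided by the library total in units of 1000000, on the TMM scale, a scaling that corrects for the makeup of each library. A feature is called higher or lower where edgeR's quasi-likelihood test over all 17 libraries gave a Benjamini-Hochberg adjusted p below 0.05 with a fitted change of 2-fold or more. All adjusted p-values given are from that test, SE is the standard error of a log2 change, and every log2 change is ORF1p RIP over mock IP unless another pair is named. Levels are shares of captured RNA, so more of an RNA in the cells, more cells that make it and more of it captured cannot be told apart. No counting program is named in the sources used here, so it is unknown how a read fitting several near-identical copies was assigned.

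The 4 libraries labelled ORF1p RIP stood apart from all 13 others, not from the mock IP alone. Over the 347397 loci, Pearson's r of log2(CPM + 1) between an ORF1p RIP library and any other library lay between 0.149 and 0.343. Among the 13 other libraries it lay between 0.521 and 0.959, and between mock IP and total RNA it was 0.690 to 0.857. The ORF1p RIP libraries resembled each other at 0.815 to 0.919, with replicate 3 the least alike at 0.815 to 0.831. Replicate 3 also had reads in the fewest loci, 636018 against 971567 to 1026240 in the other 3. A set of 208 loci reached 10 CPM in all 4 ORF1p RIP libraries and stayed under 1 CPM in all 13 others, and 715 loci did the reverse. By the same rule the mock IP had 0 and 0 such loci, total RNA 0 and 0, and the ORF2p RIP 43 and 0. Since all 4 ORF1p RIP libraries and no other carry the source label without a clone, the capture and the source of the cells cannot be told apart in any difference given here.

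**Figure D1:**
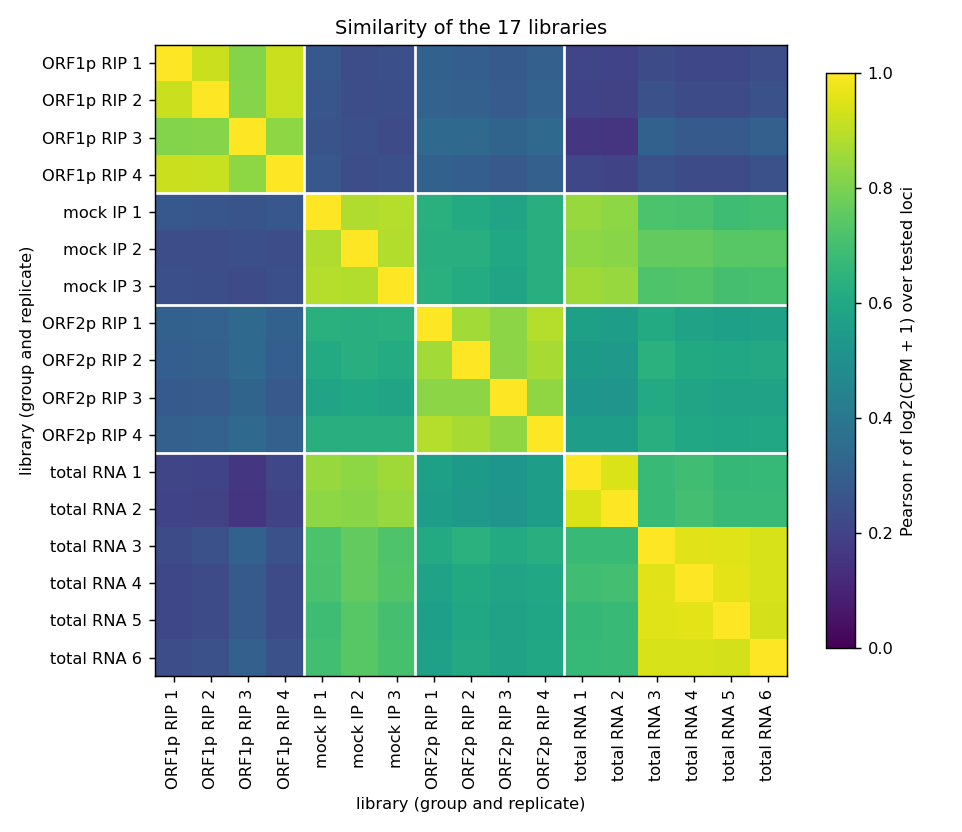
Pearson's r of log2(CPM + 1) over the tested loci for each pair of the 17 libraries, ordered by group and replicate, with white lines between groups. The 4 ORF1p RIP libraries form a block of their own, with r of 0.149 to 0.343 to every other library.

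The difference had a chromosomal pattern. Chromosome 12 held 4.72% to 5.14% of the reads in tested loci in the ORF1p RIP, 10.02% to 10.15% in the mock IP, 7.39% to 7.58% in the ORF2p RIP and 9.54% to 10.4% in total RNA. The gap lay in the first 35 Mb of the chromosome, which held 1.44% to 1.74% in the ORF1p RIP against 6.51% to 6.67% in the mock IP. That stretch held 6.29% to 6.95% in total RNA and 4.47% to 4.57% in the ORF2p RIP. The rest of chromosome 12 held 3.27% to 3.42% and 3.49% to 3.51% in the ORF1p RIP and mock IP. In the first 35 Mb 6395 of 11321 loci were called lower and 305 higher. Outside HERVH-int and LTR7 copies, 56.2% of the loci there were called lower, compared with 27.3% on the other chromosomes under the same exclusion. Chromosome 12 and the 35 Mb cut were not part of the planned comparisons, and the other chromosomes were chosen after their values were seen. Chromosome 21 held 0.817% to 1.02% in the ORF1p RIP and 2.06% to 2.09% in the mock IP, and 48.8% of its loci were called lower. Chromosome 15 held 4.14% to 4.43% against 1.99% to 2.03%, with 24.2% of its loci called higher and 13.7% lower. Chromosome 11 held 4.89% to 5.12% against 3.09% to 3.13%. How far these chromosomes move the results below was not tested.

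Markers of pluripotent cells were split. The list fixed for this work had 10 genes. Repeats lying wholly in exactly 1 gene span were counted, which left 7 of the genes to test. SOX2, TDGF1 and ESRG had no repeat counted by this rule, so whether they hold repeats is not shown. Summed over the list, repeat reads came to 631 to 778 CPM in the ORF1p RIP libraries and 2063 to 2194 in the mock IP. Total RNA held 1670.3 to 2312 CPM and the ORF2p RIP 5362.5 to 5937 CPM. In the ORF2p RIP L1TD1 alone stood at 4247 to 4663 CPM. The repeats in the span of POU5F1, the transcription factor OCT4, were higher, and those of NANOG, DNMT3B, L1TD1, DPPA4 and LIN28B were lower. NANOG stood at 1.47 to 4.63 CPM in the ORF1p RIP and 32.1 to 42.1 in the mock IP. Its span, at chr12:7789402-7799146, lies in the first stretch of chromosome 12 described above. Of 11321 loci in that stretch, 6395 were called lower and 305 higher. Whether the fall of NANOG goes beyond that of the stretch was not tested. Of 8 markers of other cell types, 7 had repeats counted by the same rule. Their sum was 0.966 to 3.10 CPM in the ORF1p RIP and 4.68 to 5.49 in the mock IP. Most of that sum in the mock IP was COL1A2, at 4.01 to 4.76 CPM there and 0 to 0.373 in the ORF1p RIP. GATA6, a transcription factor of endoderm, stood at 0.322 to 1.07 CPM in the ORF1p RIP and 0 to 0.213 in the mock IP, without overlap. COL1A1 overlapped, at 0.161 to 2.63 and 0.451 to 0.672 CPM. COL3A1, LUM, DCN and PAX6 were between 0 and 0.322 CPM in both groups.

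Young L1 RNA was higher with ORF1p than in the mock IP, and the youngest subfamilies differed by the most among the 9 young L1 subfamilies. L1HS stood at 16065, 15472, 53009 and 17613 CPM in ORF1p RIP replicates 1 to 4 and at 1864, 1829 and 1686 CPM in mock IP replicates 1 to 3. Every ORF1p RIP library was above every mock IP library, and replicate 3 was far above the other ORF1p RIP libraries. The fitted change was 14.2-fold (log2 3.83, SE 0.50, adjusted p = 8.5e-06). Without replicate 3 it was 9.14-fold (adjusted p = 3.4e-06).

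L1PA2 stood at 21881, 21342, 67904 and 24689 CPM in the ORF1p RIP and 6006, 5726 and 5160.0 CPM in the mock IP. The groups did not overlap, and the change was 6.03-fold (log2 2.59, SE 0.45, adjusted p = 0.00015), or 4.02-fold without replicate 3. L1PA3 stood at 14502, 14485, 39499.8 and 15382 CPM against 8431, 8297 and 7543 CPM, a 2.59-fold change (log2 1.37, SE 0.36, adjusted p = 0.0044). L1PA3 lost its call without replicate 3, at 1.83-fold (adjusted p = 0.013). Of the 9 young L1 subfamilies these 3 were called higher and 0 lower. Over all tested subfamilies 7.36% were called higher and 8.75% lower, and the groups did not overlap in 68.7%, with a median log2 change of 0.02.

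The 6 older members, L1PA4 to L1PA8A, did not pass. Their log2 changes ran from -0.12 (SE 0.25, adjusted p = 0.70) in L1PA8A to 0.48 (SE 0.30, adjusted p = 0.20) in L1PA4. In ORF1p RIP replicates 1, 2 and 4, L1PA4 stood at 6868, 6986 and 7162 CPM, close to the 6757, 6704 and 6163 CPM of the mock IP, and replicate 3 alone reached 15549.8 CPM. L1PA7 and L1PA8 changed sign without replicate 3, to log2 changes of -0.12 and -0.11.

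The ORF2p RIP was above the mock IP in the older members L1PA4 to L1PA7 too. Its log2 change over the mock IP was 3.22 in L1HS, 2.98 in L1PA2, 2.38 in L1PA3, 1.72 in L1PA4, 1.76 in L1PA5, 1.69 in L1PA6 and 1.59 in L1PA7 (adjusted p of 0.00068 or less in each). Both contrasts share the mock IP libraries. From ORF1p RIP to ORF2p RIP, L1HS changed by a log2 of -0.61 (SE 0.39, adjusted p = 0.20), which did not pass, with 16682 ± 1025 CPM in the ORF2p RIP (SD, n = 4). L1PA4 was higher in the ORF2p RIP than in the ORF1p RIP by 1.24 (SE 0.28, adjusted p = 0.0014), L1PA5 by 1.48 (SE 0.28, adjusted p = 0.00028) and L1PA8A by 1.79 (SE 0.24, adjusted p = 8.0e-06). Total RNA held 1710.3 ± 731 CPM of L1HS (SD, n = 6), a level that overlapped that of the mock IP.

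**Figure D2:**
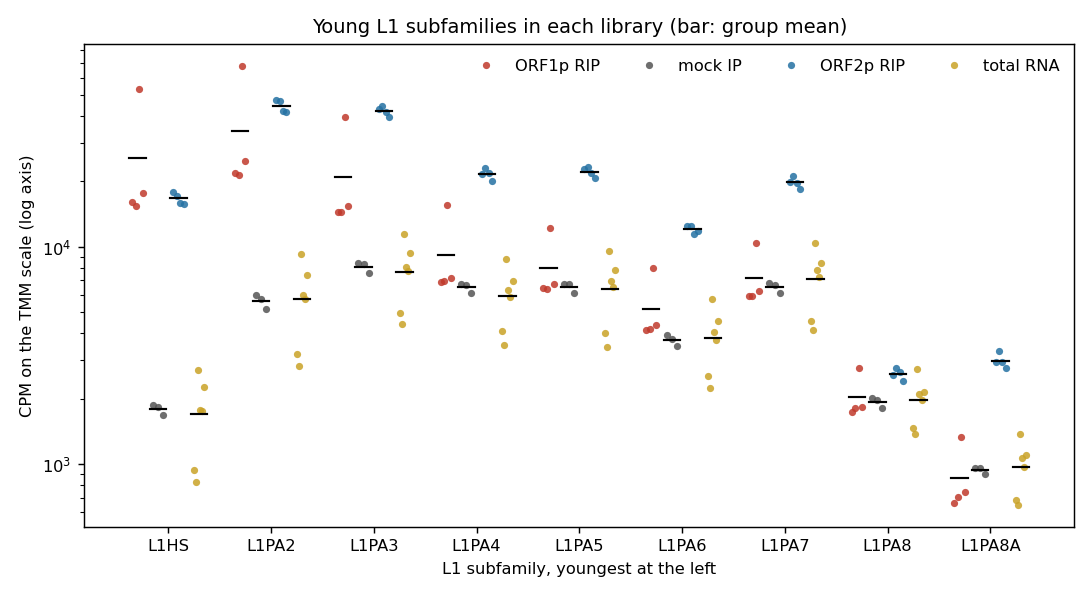
CPM on a log axis for the 9 young L1 subfamilies, youngest at the left, with 1 point per library and a bar at each group's mean. In L1HS the 4 ORF1p RIP libraries lie at 15472 to 53009 CPM, above the 3 mock IP libraries at 1686 to 1864, and the groups overlap in L1PA5, L1PA7, L1PA8 and L1PA8A.

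Over all loci tested, 61036 (17.6%) were called higher with ORF1p and 100953 (29.1%) lower. Called in either direction were 46.6%, and in 52.0% of loci the libraries of the groups did not overlap. The median log2 change of all loci was -0.28, and it fell to -0.67 with TMM factors computed on the loci and to -0.69 with DESeq2's size factors. Called-higher loci made up 37.7% of all calls, and 27.3% with TMM factors computed on the loci. Loci entered on a count summed over 17 libraries, of which 4 were ORF1p RIP. Loci seen mainly in the ORF1p RIP therefore entered less easily than those seen in the other groups. How far this moves the shares was not tested. Counts of members below are read against these background shares.

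Nearly all long L1HS copies were called higher. Copies of 6000 bases or more keep close to the full length of the element. Of 307 such L1HS copies, all of which were tested, 297 (96.7%) were called higher and 0 lower, with a median log2 change of 3.64. Among the 571 shorter L1HS copies tested of 1278, 464 (81.3%) were called higher, with a median of 2.97. Without ORF1p RIP replicate 3, 290 of the long copies were called higher and the median was 2.98.

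The share called higher was smaller in the older subfamilies, in long and in short copies. Of the long copies, 830 of 977 (84.95%) in L1PA2, 949 of 1361 (69.7%) in L1PA3, 399 of 1129 (35.3%) in L1PA4 and 157 of 659 (23.8%) in L1PA5 were called higher. L1PA6, L1PA7 and L1PA8 were near the background at 21.3%, 18.3% and 17.6%, and in L1PA8A 0 of 36 long copies were called higher and 19 lower. Short copies ran below long ones in L1PA2 (60.6%), L1PA3 (42.2%) and L1PA4 (21.8%), and from L1PA5 on they stood at 14.9% to 16.9%. Without replicate 3 the long copies called higher fell to 700 (71.6%) in L1PA2, 657 (48.3%) in L1PA3, 221 (19.6%) in L1PA4 and 103 (15.6%) in L1PA5, beside 16.1% of all loci. Over L1PA4 copies of any length the count went from 804 (26.9%) to 502 (16.8%).

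**Figure D3:**
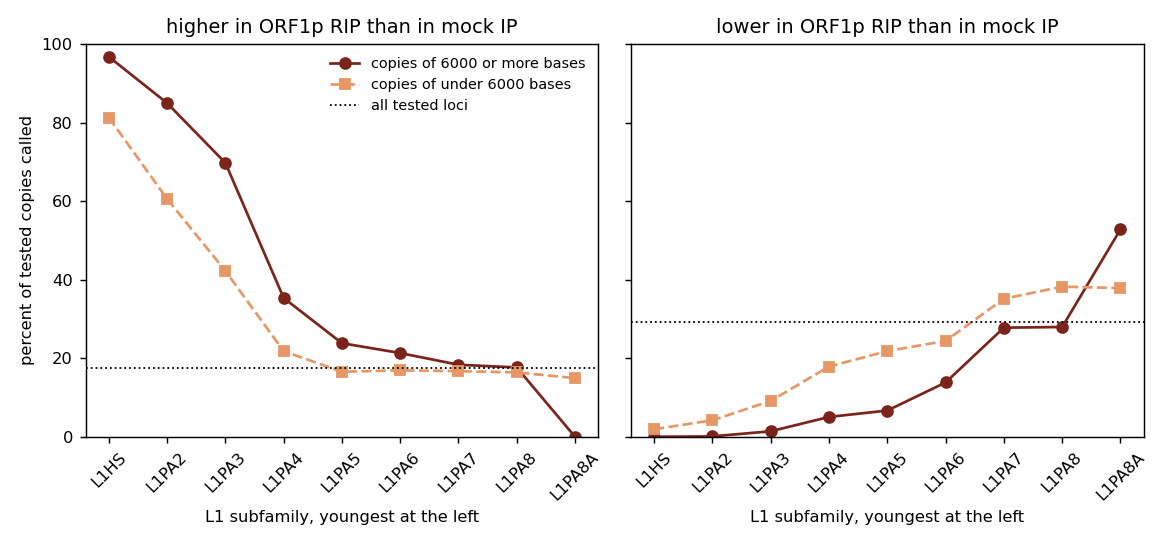
Percent of tested copies called higher (left) or lower (right) with ORF1p than in the mock IP, by L1 subfamily with the youngest at the left, for copies of 6000 bases or more (circles) and shorter copies (squares). The dotted lines mark the shares over all tested loci, 17.6% and 29.1%, and long copies fall from 96.7% called higher in L1HS to 0 in L1PA8A.

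Loci were also grouped by divergence from their subfamily's consensus, a measure of a copy's own age in substitutions per 1000 bases. Of L1 loci under 20 per 1000, 75.1% of 1814 were called higher. The share was 45.5% at 20 to 49, 19.6% at 50 to 99 and 15.5% to 17.5% in each older class. Among L1 loci outside the young subfamilies the 78 loci under 20 per 1000 had 65.4% called higher, the 403 loci at 20 to 49 had 41.2% and those at 50 to 99 had 15.9%. Outside the young subfamilies longer loci were called more often in both directions. From loci under 500 bases to those of 6000 or more, the share called higher went from 16.3% to 22.0% and the share called lower from 27.4% to 43.1%.

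Single L1HS copies stood far above the mock IP. The copy with the highest level in the ORF1p RIP lies at chr22:28663284-28669315 (hg38, plus strand, 6032 bases), within the TTC28 gene and antisense to it. It stood at 1642, 1574, 5400 and 1944 CPM in the ORF1p RIP and at 6.20, 8.37 and 7.87 CPM in the mock IP. The groups were far from overlapping, the log2 change was 8.46 (SE 0.70, adjusted p = 3.0e-10), and the ORF2p RIP and total RNA held 102 ± 13.3 and 5.78 ± 3.30 CPM (SD, n = 4 and 6). Without replicate 3 the change was 229-fold, against 352-fold with it. This copy gave 10.3% of all L1HS reads in the ORF1p RIP. In the mock IP the leading copy gave 2.64%.

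The next L1HS copies by level were assigned to no single gene span. Such copies lie outside every span, touch more than 1 or lie only partly in 1. The copy at chr7:25041861-25047891 (minus strand, 6031 bases) stood at 453 to 1277 CPM in the ORF1p RIP and 5.12 to 5.58 in the mock IP, a log2 change of 7.03 (SE 0.54, adjusted p = 9.0e-11). The copy at chr1:239623499-239629523 (minus strand, 6025 bases) stood at 374 to 1248 CPM against 6.38 to 7.31, a log2 change of 6.52 (SE 0.51, adjusted p = 1.3e-10). Both were called, with no overlap between groups, and in both replicate 3 was the highest library. Without it the copy on chromosome 1 changed by 60.8-fold, against 91.96-fold with it. The reads of L1HS were gathered on fewer copies with ORF1p: 52 copies held 50% of them in the ORF1p RIP, 118 in the mock IP and 115 in total RNA.

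Among L1PA2 copies the highest level was at chr16:61801456-61807489 (plus strand, 6034 bases), within CDH8 and antisense to that cadherin gene. It stood at 724, 664, 2522 and 848 CPM in the ORF1p RIP and 7.81, 6.56 and 4.02 CPM in the mock IP, a log2 change of 7.59 (SE 0.74, adjusted p = 5.1e-09), or 121-fold without replicate 3 against 193-fold with it. The next copies, both on chromosome 8 and over 6000 bases, had means of 1005 and 935 CPM against 6.39 and 4.90 CPM in the mock IP. These copies were at 52.0 to 75.8 CPM in the ORF2p RIP and 3.39 to 6.82 in total RNA.

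Per library, long copies gave 75.2% to 77.3% of L1HS reads in the ORF1p RIP and 57.6% to 59.8% in the mock IP. The difference of the means was 17.5 percentage points, and the exact two-sided permutation test gave p = 0.0571, the smallest that 4 libraries against 3 allow (adjusted 0.0653 over 8 measures). Long young L1 copies gave 14.8%, 13.97%, 25.4% and 16.5% of all L1 reads in ORF1p RIP replicates 1 to 4 and 6.11% to 6.91% in the mock IP, and the mean divergence of L1 reads was 141 to 172 per 1000 bases against 184 to 188. Both measures separated the groups without overlap (exact permutation p = 0.0571 each).

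L1HS copies inside and outside genes had similar shares called. Of 381 L1HS loci in exactly 1 gene span, 85.6% were called higher, and of 467 outside every span 88.7%. On the strand of the gene it was 112 of 129, and antisense to it 143 of 166. In the young L1 list as a whole the share was 33.7% inside and 43.0% outside spans. Over all repeats the order was the reverse, with 18.1% called higher inside spans and 13.9% outside, and 22.7% and 55.2% called lower.

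Repeats just downstream of long L1HS copies were called higher more often than those upstream. L1 transcripts can run past the element's own weak end signal into the flank. Of 81 tested loci outside young L1 within 1000 bases downstream, 32 (39.5%) were called higher, with a median log2 change of 1.28. Of 40 within 1000 bases upstream 8 were, with a median of -0.04, and over all loci outside young L1 the share was 16.6%. Within 5000 bases the shares were 33.2% downstream and 20.9% upstream. For L1PA2 they were 20.9% downstream and 13.8% upstream within 1000 bases, and the downstream loci had a median of -1.06. The difference between the sides was not tested.

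The young Alu subfamilies were higher too. AluYb8 stood at 1064, 1177, 1921 and 1231 CPM in the ORF1p RIP and 295, 247 and 299.4 CPM in the mock IP. The libraries did not overlap, and the change was 4.81-fold (log2 2.27, SE 0.22, adjusted p = 3.6e-07). AluYa5 stood at 702, 587, 1181 and 682 CPM against 279, 201 and 266 CPM, a 3.17-fold change (log2 1.66, SE 0.28, adjusted p = 0.00012). Of the 4 AluYa and AluYb subfamilies tested, 3 were called higher and 0 lower. The 17 AluS and 4 AluJ subfamilies had 0 called in either direction, with medians of 0.55 and 0.39. AluSx3, for example, changed by a log2 of 0.64 (SE 0.30, adjusted p = 0.087), and AluJb by 0.42 (SE 0.31, adjusted p = 0.27).

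The AluYb8 reads were gathered on few copies in the ORF1p RIP, and how far these account for the subfamily's change was not tested. In the ORF1p RIP 2 copies held 50% of the AluYb8 reads, and in the mock IP 16 did. The leading copy was a fragment of 157 bases at chr5:143974084-143974240, assigned to no single gene span. It stood at 357, 357, 632 and 446 CPM in the ORF1p RIP and 31.7, 35.03 and 35.4 CPM in the mock IP (log2 3.72, SE 0.38, adjusted p = 1.4e-08). The AluYb8 copy at chr7:27743768-27744104, antisense to TAX1BP1, stood at 169.8 to 248 CPM against 19.7 to 22.8 (log2 3.32, SE 0.44, adjusted p = 8.4e-07). The AluYa5 copy at chr7:118703762-118704101 stood at 77.4, 108, 423 and 76.7 CPM against 9.82 to 13.5, a 14.4-fold change, or 7.36-fold without replicate 3. Of 240 AluYa and AluYb loci, 41.3% were called higher and 22.5% lower, so single copies went both ways. Among 4453 other AluY loci the shares were 19.8% and 23.5%, close to those of all loci.

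HERVK-int, LTR5_Hs and LTR5A were higher with ORF1p than in the mock IP. Of the 5 subfamilies of HERVK-int and LTR5, 3 were called higher and 0 lower, beside 7.36% and 8.75% of all subfamilies. LTR5 (log2 0.66, SE 0.37, adjusted p = 0.15) and LTR5B (log2 0.01, SE 0.28, adjusted p = 0.97) did not pass. The internal part, HERVK-int, stood at 22853, 23172, 29237 and 18755 CPM in the ORF1p RIP and 9899, 11296 and 9791 CPM in the mock IP, a 2.28-fold change (log2 1.19, SE 0.34, adjusted p = 0.0087). Total RNA held 20831 ± 9061 CPM of it (SD, n = 6), with replicates 1 and 2 at 9319 and 9451 CPM and the other 4 at 23621 to 28810, a range that overlaps the ORF1p RIP. LTR5_Hs, the youngest of its LTRs, stood at 3633, 3346, 2023 and 3090.4 CPM against 996, 819.7 and 935 CPM, a 3.30-fold change (log2 1.72, SE 0.28, adjusted p = 7.4e-05), and total RNA held 646 ± 228 CPM. LTR5A changed 2.09-fold (log2 1.06, SE 0.26, adjusted p = 0.0025) and fell short of 2-fold when libraries were scaled by their totals alone, at a log2 of 0.98, and without mock IP replicate 2, at 0.99.

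Single HERVK copies differed in direction. Of 130 HERVK-int loci 51 (39.2%) were called higher and 26 lower. Over the 520 loci of HERVK-int and LTR5 the median log2 change was 0.09, and -0.31 with TMM factors computed on the loci. The HERVK-int copy at chr22:18939642-18945174 (5533 bases) stood at 3595, 4541, 6228 and 4015 CPM against 1651, 1559 and 1473 CPM (log2 1.56, SE 0.41, adjusted p = 0.0027). The copy at chr6:77718000-77725406 (7407 bases, antisense to MEI4) stood at 3657, 3250.5, 2981 and 1408 CPM against 298 to 313 CPM, a log2 change of 3.20 (SE 0.45, adjusted p = 1.7e-06). The copy at chr5:156660384-156665917, antisense to SGCD, overlapped between the groups at 2897 to 4293 and 3208 to 4133 CPM (log2 -0.09, SE 0.39, adjusted p = 0.87).

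A HERVK provirus on chromosome 11 was high in the ORF1p RIP. It was singled out after its values were seen, because its 3′ LTR came up among the loci with the largest rise. Its 5′ LTR5_Hs at chr11:101695063-101696030 stood at 425, 364, 187 and 383 CPM in the ORF1p RIP and at 2.60, 0.218 and 0.331 CPM in the mock IP. Its internal parts at chr11:101696031-101699581 and chr11:101699645-101703465 had means of 409 and 1186 CPM against 7.63 and 59.4. The 3′ LTR5_Hs at chr11:101703561-101704528 stood at 136, 131, 71.4 and 138 CPM against 0.274, 0 and 0 CPM. All 4 parts were called higher. Both LTRs were under 1 CPM on average in the ORF2p RIP and in total RNA, but the longer internal part stood there at 124 ± 26.2 and 198.6 ± 120.2 CPM (SD, n = 4 and 6) and the shorter at 8.24 ± 3.27 and 10.1 ± 5.57 CPM.

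HERVH was lower with ORF1p than in the mock IP. HERVH-int stood at 39246, 34072, 66090.4 and 31225 CPM in the ORF1p RIP and 196636, 171506 and 177814 CPM in the mock IP. No library overlapped, and the fitted level in the mock IP was 4.27-fold that of the ORF1p RIP (log2 -2.09, SE 0.22, adjusted p = 8.8e-07). Total RNA held 83868 ± 12862 CPM and the ORF2p RIP 69937 ± 6046 CPM (SD, n = 6 and 4), so the mock IP was above total RNA and the ORF1p RIP below it. Its LTR7 ends stood at 1982 to 2986 CPM against 10404 to 13682, a log2 change of -2.28 (SE 0.27, adjusted p = 3.5e-06).

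The variants of LTR7, which drive HERVH at different stages of early development, did not move as one. LTR7C was higher, at 202, 173, 260 and 167 CPM against 76.8, 63.5 and 74.7 CPM (log2 1.48, SE 0.29, adjusted p = 0.00050). LTR7Y did not differ beyond its spread, at 676 to 971 CPM against 664 to 909.7 (log2 0.12, SE 0.27, adjusted p = 0.72). Of its 124 tested loci, however, 75 (60.5%) were called lower and 18 higher, and of the 39 LTR7C loci 13 were called lower and 11 higher. LTR7B changed by a log2 of -0.87 (SE 0.30, adjusted p = 0.021), less than 2-fold.

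Among single copies, 3976 of 5233 loci of HERVH-int and LTR7 (76.0%) were called lower and 245 (4.68%) higher, with a median log2 change of -3.15. Different copies led in the 2 groups. Of the 20 HERVH-int copies with the most reads in the ORF1p RIP, 2 were among the leading 20 of the mock IP, whereas the mock IP and total RNA shared 16. In the ORF1p RIP 22 copies held 50% of the HERVH-int reads, and in the mock IP 160 did.

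The leading copy of the mock IP lies at chr12:4018994-4021963 (2970 bases) in the long noncoding RNA LINC03141. It stood at 4525, 3694 and 3956 CPM there and at 51.9, 45.2, 44.3 and 56.5 CPM in the ORF1p RIP (log2 -6.36, SE 0.34, adjusted p = 8.4e-13). The next, at chr3:54636819-54639750, overlapped at 2110.1 to 3537 CPM in the ORF1p RIP and 3145 to 3809.6 CPM in the mock IP (log2 -0.40, SE 0.33, adjusted p = 0.33). The copy at chr7:83460121-83463207, antisense to SEMA3E, had means of 891 and 2056 CPM (log2 -1.21, SE 0.33, adjusted p = 0.0036).

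Some HERVH-int copies, named after their values were seen, were high in the ORF1p RIP and low in the mock IP. The copy at chr15:35239063-35242176, antisense to DPH6, stood at 3941, 3263, 6503 and 3347 CPM in the ORF1p RIP, at 144, 92.3 and 97.2 CPM in the mock IP and at 43.6 ± 10.95 CPM in total RNA (SD, n = 6). It gave 9.998% of HERVH-int reads in the ORF1p RIP. The copy at chr1:68386440-68389684 had means of 1846 and 78.5 CPM in the ORF1p RIP and the mock IP. The one at chr13:109265522-109269052, in LINC03061, had means of 1398 and 194 CPM.

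**Figure D4:**
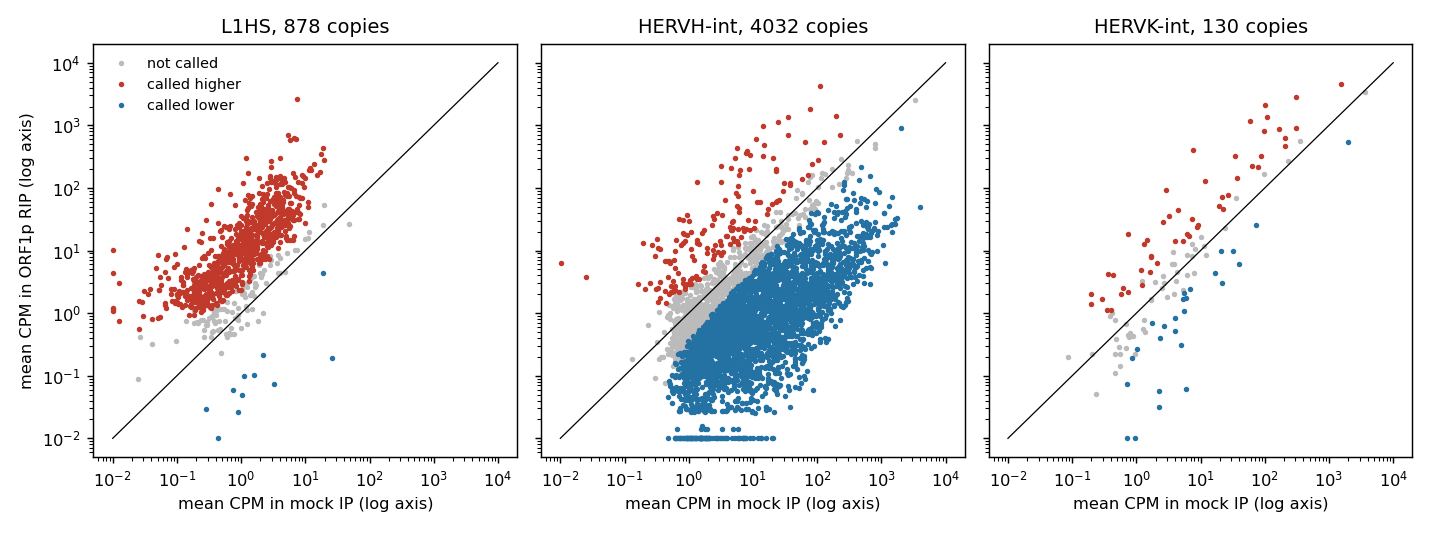
Mean CPM in the ORF1p RIP against mean CPM in the mock IP for each tested copy of L1HS, HERVH-int and HERVK-int, both on log axes, with the line of equality and means under 0.01 CPM drawn at 0.01. Of the L1HS copies 761 of 878 are called higher, of the HERVH-int copies 3126 of 4032 are called lower and 162 higher, and the HERVK-int copies lie on both sides.

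Other endogenous retroviruses went both ways. HERVK11-int, a more distant relative of HERVK, stood at 166 to 196 CPM in the ORF1p RIP and 694 to 742 CPM in the mock IP (log2 -2.002, SE 0.09, adjusted p = 6.5e-11). HERVK13-int changed by a log2 of -1.19 (SE 0.09, adjusted p = 2.7e-08). HERVE_a-int stood at 29.0 to 48.7 CPM against 111 to 144 (log2 -1.60, SE 0.19, adjusted p = 3.3e-06), while LTR2C, an LTR of the same group, was higher at 161 to 305 CPM against 61.8 to 66.5 (log2 1.71, SE 0.18, adjusted p = 1.4e-06). LTR12D, an LTR of HERV9, stood at 30.6 to 50.1 CPM against 145 to 178 (log2 -1.83, SE 0.27, adjusted p = 2.9e-05). HERV17-int, the group of the syncytin gene, did not pass (log2 -0.49, SE 0.25, adjusted p = 0.11), nor did its LTR17 (log2 -0.31, SE 0.22, adjusted p = 0.24).

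At the level of loci the LTR class had 42.9% called lower and 12.7% higher of 55864. LINE loci had 27.5% and 18.8%, SINE loci 24.6% and 17.9%, and DNA transposon loci 25.9% and 18.7%. The ancient LTR groups were alike in this: THE1 with MST had 39.8% lower, MLT1 38.5% and HERVL with MLT2 42.1%. As subfamilies they seldom passed, with 1 higher and 1 lower of 24 for THE1 with MST, 1 and 3 of 58 for MLT1, and 0 and 0 of 18 for HERVL with MLT2. Those with the smallest p in HERVL with MLT2 were MLT2B2 (log2 -0.71, SE 0.09, adjusted p = 4.9e-06) and MLT2F (log2 -0.57, SE 0.07, adjusted p = 5.7e-06), both changed by less than 2-fold.

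Ancient DNA transposons, which left the human lineage with immobile fossils, rose in some subfamilies. Of 64 TcMar-Tigger subfamilies 5 were called higher and 0 lower, and of 75 hAT-Charlie subfamilies 6 and 0, shares of 7.81% and 8% that are near the background of 7.36%. Tigger19a stood at 1217, 1261, 1732 and 1201 CPM against 465, 473 and 455 CPM (log2 1.54, SE 0.13, adjusted p = 1.0e-07). Tigger16b stood at 418 to 441 CPM against 181 to 187, and at 439.9 ± 39.7 CPM in the ORF2p RIP (SD, n = 4). The ORF2p RIP minus ORF1p RIP difference was a log2 of 0.04 (SE 0.09, adjusted p = 0.74). Charlie16a (log2 1.18, SE 0.08, adjusted p = 9.0e-09) and MARNA (log2 1.23, SE 0.16, adjusted p = 7.5e-06) rose too. FordPrefect, a hAT-Tip100 element, fell, from 63.7 to 71.9 CPM in the mock IP to 31.7 to 33.6 in the ORF1p RIP (log2 -1.06, SE 0.07, adjusted p = 1.4e-08).

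The DNA transposon copies with the highest levels in the ORF1p RIP or the mock IP came from Tigger19a, Charlie17 and Charlie18a. The Tigger19a copy at chr15:55612875-55613023, antisense to PRTG, stood at 262, 265, 581 and 282 CPM in the ORF1p RIP and 1.64 to 3.46 CPM in the mock IP (log2 7.11, SE 0.56, adjusted p = 1.3e-10). A Charlie17 copy at chr2:101017794-101019727 stood at 331 to 468 CPM against 6.53 to 7.71 (log2 5.74, SE 0.48, adjusted p = 4.4e-10). A Charlie18a copy at chr11:43856361-43856654 had a mean of 332 CPM against 20.1 CPM in the mock IP and 388 ± 94.9 in the ORF2p RIP (SD, n = 4).

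Older LINEs had few changes as subfamilies. Of 88 mammalian L1 subfamilies 3 were called higher and 2 lower, of 17 older primate L1 subfamilies 0 and 0, of 4 HAL1 subfamilies 0 and 0, and of 10 L2 subfamilies 1 and 0. L1M6B was higher at 184 to 325 CPM against 88.5 to 93.4 (log2 1.37, SE 0.20, adjusted p = 2.7e-05) and stood at 758 ± 23.2 CPM in the ORF2p RIP (SD, n = 4). L1P4d was lower at 3.95 to 9.16 CPM against 62.1 to 72.1 (log2 -3.38, SE 0.19, adjusted p = 1.7e-09). X5B_LINE, a small CR1 subfamily of 46 copies, stood at 76.8, 96.1, 174 and 102 CPM against 5.37, 7.11 and 6.61 CPM, a 17.6-fold change (log2 4.14, SE 0.46, adjusted p = 2.1e-06), and 1 of its 3 tested loci was called higher. L1PA17 did not pass between ORF1p RIP and mock IP (log2 -0.54, SE 0.32, adjusted p = 0.17) but stood at 18292 ± 1488 CPM in the ORF2p RIP (SD, n = 4). Of the 5 MIR subfamilies 0 were called, with log2 changes from 0.16 in MIR to 0.68 in MIR1_Amn. MIR3 stood at 10563 to 10968 CPM against 7304 to 7487 (log2 0.55, SE 0.07, adjusted p = 7.6e-06). Of 32434 MIR loci 5602 (17.3%) were called higher and 9772 (30.1%) lower, close to the shares of all loci.

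The single loci with the largest changes came from LINE, SINE and LTR elements. Those with the largest rise among loci at 20 CPM or more included a THE1B copy at chr2:185151563-185151925, which stood at 42.6, 33.4, 56.6 and 36.8 CPM in the ORF1p RIP and had no read in the 13 other libraries. Against a floor of 3 counts over the mock IP group it was at least 651-fold higher. An L1PA3 copy at chr3:145821261-145823394 stood at 226, 222, 387 and 291 CPM and at 0.157, 0 and 0.0879 CPM in the mock IP (log2 11.52, SE 1.23, adjusted p = 2.4e-08). An AluJo copy at chr3:86944241-86944550 in VGLL3, on its strand, stood at 170.0 to 231 CPM against 0 to 0.611 (log2 9.13, SE 0.66, adjusted p = 3.8e-11). An L1PB2 copy at chr4:55630685-55632245, antisense to NMU, stood at 53.3, 53.8, 219.6 and 56.3 CPM against 0.370, 0 and 0, a 697-fold change, or 398-fold without replicate 3.

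All 8 loci named for the largest fall had no read in any ORF1p RIP library, so their folds are lower bounds against a floor of 3 counts over that group. An LTR9D copy at chr16:24478296-24478907, in the span of LOC105371143, stood at 50.3, 37.7 and 47.8 CPM in the mock IP and was at least 489-fold lower. A THE1C copy at chr12:20663887-20664259 in PDE3A, on its strand, stood at 29.5, 35.5 and 34.3 CPM and was at least 358-fold lower. An AluJo copy at chr3:21590914-21591202, antisense to ZNF385D, was at least 274-fold lower. An L1MEc copy at chr21:27850912-27851651 and an MLT1D copy at chr21:28035082-28035566 were at least 270-fold and at least 257-fold lower. The other 3 were at least 248-fold lower. The 8 loci were present in the ORF2p RIP at means of 12.5 to 45.2 CPM and in total RNA at 7.83 to 54.0 CPM.

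Repeat reads were also summed over the gene spans that hold them. Such a sum takes in transcripts of the repeats themselves as well as those of the gene. In the ORF1p RIP 45.2% to 50.7% of these reads lay in repeats annotated on the strand of the gene. The strand of the reads themselves was not used, so this share does not separate the 2 kinds of transcript. Repeat reads inside exactly 1 gene span made up 70.1% to 75.3% of repeat reads in the ORF1p RIP and 62.0% to 62.5% in the mock IP (exact permutation p = 0.0571). They were summed per gene span of RefSeq (GRCh38.p14, the assembly of hg38), and 13162 spans were tested. The spans come without exons, so whether a repeat is in an exon, intron or UTR was not used. Of the spans 4369 (33.2%) were called higher and 2917 (22.2%) lower, 55.4% in all, and the groups did not overlap in 75.4%.

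Several spans were high in the ORF1p RIP alone. VGLL3, a transcription cofactor (chr3:86937973-86991149), stood at 312, 299.6, 321 and 328 CPM in the ORF1p RIP and 2.81, 1.12 and 0.988 CPM in the mock IP (log2 7.55, SE 0.36, adjusted p = 3.9e-12). SOST, which encodes the Wnt inhibitor sclerostin, stood at 19.1 to 24.1 CPM against 0 to 0.122, TCEAL7 at 37.3 to 44.8 CPM against 0.0611 to 0.225, and the matrix protein gene FBLN7 at 99.4 to 252 CPM against 0.213 to 1.56. Chosen after their values were seen, the membrane-binding annexin gene ANXA1 stood at 177 to 197 CPM against 1.52 to 3.30 (log2 6.30, SE 0.37, adjusted p = 6.5e-11) and the ecto-nucleotidase gene NT5E at 33.1 to 61.7 CPM against 0.0751 to 0.668. VIM and CAST were also chosen after their values were seen. VIM, the intermediate filament vimentin, stood at 19.2 to 27.1 CPM against 1.06 to 1.199, and CAST, the calpain inhibitor calpastatin, at 96.1 to 136 CPM against 3.94 to 7.01. In each of these spans the ORF2p RIP and total RNA had means of at most 6.47 CPM. The spans of SOST and NT5E held 1 tested locus each, TCEAL7 2, VIM 3, CAST 4, FBLN7 8, ANXA1 9 and VGLL3 11.

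The spans with the largest fall were near 0 in the ORF1p RIP. LOXHD1, a gene of inner ear hair cells (chr18:46476961-46657220), stood at 0.0531 to 0.529 CPM in the ORF1p RIP and 105, 106 and 107 CPM in the mock IP (log2 -8.54, SE 0.26, adjusted p = 1.6e-14). SCNN1A, a subunit of the epithelial sodium channel (chr12:6346847-6377359), stood at 0.0403 to 0.456 CPM against 94.8 to 115. FAM162B had reads in 1 ORF1p RIP library, at 0.107 CPM, against 17.5 to 26.6 CPM. LINC00314 stood at 0.0621 to 0.320 CPM against 82.8 to 93.9. Their ORF2p RIP means were 13.4 to 92.3 CPM.

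Long intergenic noncoding RNA (LINC) genes were lower more often than all spans. Of 453 LINC spans 150 (33.1%) were called higher and 181 (40.0%) lower, beside 33.2% and 22.2% of all spans. LINC03141, whose span holds the HERVH copy on chromosome 12 above, stood at 94.5 to 129 CPM against 7464 to 8856 (log2 -6.19, SE 0.15, adjusted p = 1.1e-15). LINC01695 and LINC00189, both on chromosome 21, stood at 4.97 to 9.99 and 1.48 to 3.79 CPM against 1158 to 1244 and 351 to 379.5. Named after its values were seen, LINC-ROR, a HERVH-driven RNA of reprogrammed cells, stood at 8.71 to 15.1 CPM against 707 to 780.4 (log2 -6.01, SE 0.27, adjusted p = 2.1e-12). MEG3, the imprinted RNA of chromosome 14, is outside the LINC list and was also named after its values were seen. It stood at 0.161 to 0.570 CPM against 131 to 154 (log2 -8.33, SE 0.36, adjusted p = 1.0e-12).

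Of the 7 pluripotency spans tested, 1 was called higher and 5 lower, beside 33.2% and 22.2% of all spans. POU5F1 stood at 266, 251, 147 and 161 CPM in the ORF1p RIP and 26.9, 20.5 and 21.8 CPM in the mock IP (log2 3.16, SE 0.31, adjusted p = 5.2e-08). LIN28A, an RNA-binding protein outside that list and named after its values were seen, was higher too, at 69.7 to 104 CPM against 37.4 to 46.5 (log2 1.11, SE 0.27, adjusted p = 0.0016). DNMT3B, the de novo DNA methyltransferase, stood at 22.0 to 26.99 CPM against 425 to 480.4 (log2 -4.18, SE 0.20, adjusted p = 5.8e-12). L1TD1, an RNA-binding protein descended from an L1 ORF1, stood at 34.5 to 104 CPM against 456 to 468 in the mock IP (log2 -3.03, SE 0.42, adjusted p = 5.0e-06) and 4428 ± 178 in the ORF2p RIP (SD, n = 4). SALL4 did not pass (log2 0.62, SE 0.34, adjusted p = 0.11). ZFP42, the pluripotency factor REX1, named after its values were seen, stood at 0 to 0.342 CPM against 20.8 to 24.3.

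**Figure D5:**
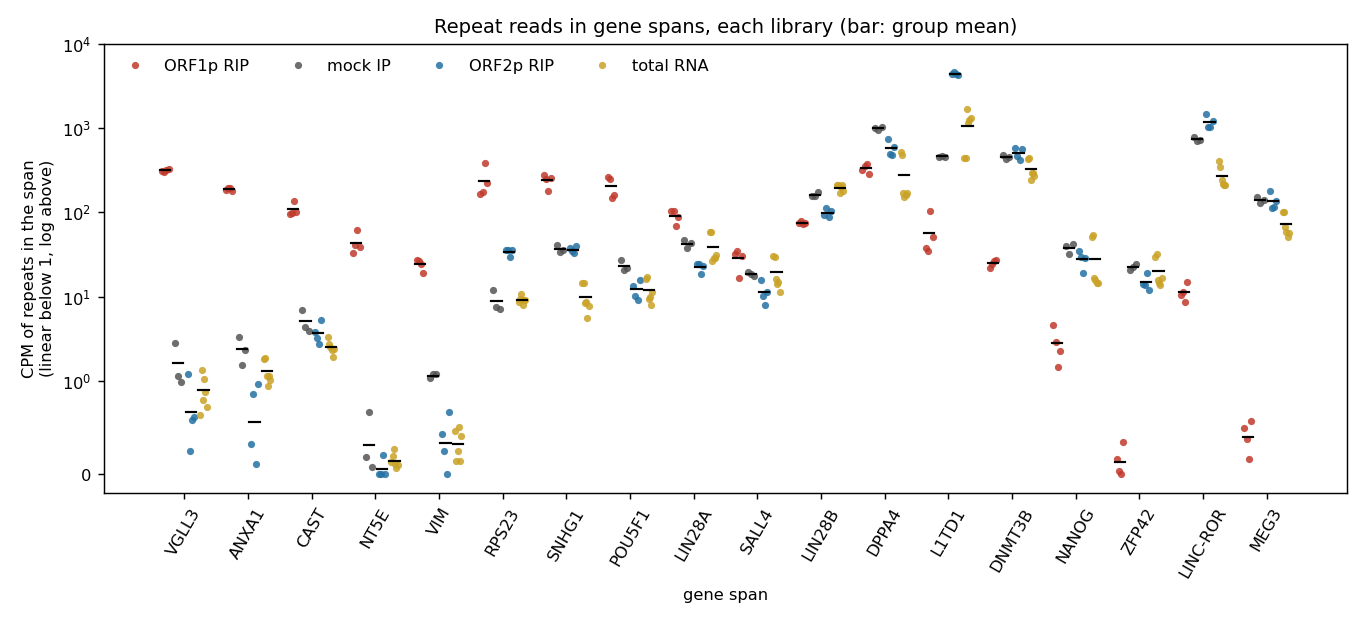
CPM of repeat reads in 18 gene spans (linear below 1, log above), with 1 point per library and a bar at each group's mean. VGLL3, ANXA1 and NT5E are high only in the 4 ORF1p RIP libraries, at 33.1 CPM or more, and MEG3 and ZFP42 are below 1 CPM only there.

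Ribosomal protein spans were called higher more often than all spans. Of 56 ribosomal protein spans 30 (53.6%) were called higher and 4 (7.14%) lower, beside 33.2% and 22.2% of all spans. Their median log2 change was 1.38, against a median of 0.33 over all spans. Ribosomal protein genes have many near-identical pseudogenes, and how shared reads were assigned is unknown, so these values are uncertain. RPS23 stood at 165, 173, 391 and 221 CPM against 11.9, 7.53 and 7.11 CPM (log2 4.74, SE 0.30, adjusted p = 1.8e-10) and RPL37 at 172 to 234 CPM against 23.7 to 25.8 (log2 3.05, SE 0.18, adjusted p = 7.0e-11). Of 17 spans of small nucleolar RNA hosts 8 (47.1%) were called higher and 3 (17.6%) lower, the latter near the 22.2% of all spans. SNHG1, whose span held 1 tested locus, stood at 181 to 275 CPM against 33.7 to 40.7. SNHG31, with 41 tested loci, stood at 3.35 to 6.36 CPM against 78.9 to 85.4.

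Of 422 zinc finger gene spans 104 (24.6%) were called higher and 77 (18.2%) lower, both below the background shares. The 3 with the smallest p were all lower. ZNF676, on chromosome 19, stood at 1.58 to 3.23 CPM in the ORF1p RIP and 191 to 216 CPM in the mock IP (log2 -6.34, SE 0.19, adjusted p = 9.1e-15). ZNF736 and ZNF727, both on chromosome 7, had means of 1.43 and 0.290 CPM against 106 and 43.2 CPM.

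Among the 143316 loci with a mean of 1 CPM or more in total RNA, a subset chosen after the data had been seen, 14.9% were called higher and 40.8% lower. These shares keep the p-values adjusted over all loci. Total RNA resembled the mock IP (Pearson's r of 0.690 to 0.857) more than the ORF1p RIP (0.149 to 0.310). A filter on total RNA therefore favours loci present in the mock IP, and part of the larger share called lower is built in. How large that part is was not tested. There L1HS had 377 of 424 loci (88.9%) called higher, L1PA2 959 of 1218 (78.7%) and L1PA3 762 of 1486 (51.3%). HERVH-int had 2685 of 3152 (85.2%) called lower.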

How the data were processed

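RNA from N2102Ep cells was sequenced after ORF1p RIP (4 libraries), mock IP (3), ORF2p RIP (4) or without capture (total RNA, 6). RNA was eluted with TRIzol, and rRNA was depleted during Trio library preparation, per the labels' protocols. The authors deposited estimated counts per repeat locus, most of them whole numbers. STAR and hg38 are named in the submitters' processing notes. No counting program is named in the sources used here. Of 60 columns of values 43 match no label and were not used.

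Estimated counts were summed per subfamily and per RefSeq gene span, and the sums were then rounded to whole numbers for the fits. Counts of single loci were rounded without summing. A span's sum took loci lying wholly in exactly 1 span, with 59792 spans considered. Starts in the file count from 0, so 1 was added. TMM factors came from the subfamily table after filterByExpr (minimum count 10, or 50 for gene spans), and edgeR 4.0.16 in R 4.3.3 fitted all 17 libraries by group with quasi-likelihood tests and Benjamini-Hochberg adjustment over all features of a table. The SE was taken as the absolute log2 change over the square root of F. Per-library measures were compared with exact permutation tests. DESeq2 1.42.0, other scalings, filters, a replicate block and left-out libraries were tried. Depth was 7693841 to 19670774 counts per library, and the interval of a ratio covers counting error only.

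The members and lists were chosen with earlier results of these data known. Subfamilies named are the L1, Alu, HERVK and HERVH ones described and the 2 with the smallest p in other lists. Loci named are the 8 with the largest rise and the 8 with the largest fall (20 CPM or more in the higher group, no overlap, 1 per gene span) and the 3 with the highest level in each of 6 families. Gene spans named are the 6 largest in each direction and 3 per list by smallest p. Items outside this rule are said to have been chosen after their values were seen, and the marker genes were named as a list.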

Additional observations from a re-analysis of the deposited data

Results flagged for a closer look

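In 41 of 156 values examined in the ORF1p RIP, 1 of the 4 libraries lay farther from the others than Dixon's test allows at the 95% level. Chance gives about 1 in 20 such cases, and the values share libraries and reads, so they are not independent. Replicate 3 was the library that stood out in 37 of them, replicate 1 in 2, replicate 4 in 2 and replicate 2 in 0.

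Replicate 3 was high in every young L1 subfamily. It stood at 53009 CPM in L1HS, 67904 in L1PA2, 39499.8 in L1PA3, 15549.8 in L1PA4, 12158 in L1PA5, 7987 in L1PA6, 10461 in L1PA7, 2780.05 in L1PA8 and 1330.01 in L1PA8A. The other 3 libraries lay at 15472 to 17613 CPM in L1HS. It was also high in HAL1b (1640.15 CPM) and Tigger19a (1732 CPM), and low in LTR17 (102.3 CPM) and MLT2B2 (183.8 CPM).

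The same library led in single copies. It held 5399.96, 1277 and 1248 CPM of the L1HS copies on chromosomes 22, 7 and 1, 2522 CPM of the L1PA2 copy on chromosome 16, and 1985 and 1842 CPM of the L1PA2 copies on chromosome 8. It held 66.32 CPM of the L1PA4 copy on chromosome 1, 219.6 of the L1PB2 copy on chromosome 4, 63.02 of the L1MA1 copy on chromosome X, 422.5 of the AluYa5 copy on chromosome 7, 581.5 of the Tigger19a copy on chromosome 15 and 524.9 of the Charlie18a copy on chromosome 11. The LTR5_Hs copy at the 3′ end of the chromosome 11 provirus was low there at 71.4 CPM, as was the gene span LOC124902738 that holds it, at 71.4 CPM.

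Among gene spans it was high in LOC124909493 (42.07 CPM), FBLN7 (252.1), RPS20 (334.5) and CAST (136.0). Replicate 1 stood out in FAM162B at 0.1067 CPM and in ZNF727 at 0.6404 CPM. Replicate 4 stood out in LOC124904767 at 0.2281 CPM and in the subfamily L1P at 1.596 CPM.

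In shares of reads, replicate 3 had 1.732% of Alu reads in AluYa and AluYb and 70.08% of repeat reads in 1 gene span. Of its gene span reads 50.67% lay in repeats annotated on the strand of the gene. Chromosome 12 held 4.715% of its repeat reads, the first 35 Mb of that chromosome 1.441% and chromosome 21 0.8166%.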

How the results depend on the processing

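Of 142 named subfamilies, loci and gene spans, 135 kept their direction and their side of the threshold under all alternatives run. L1PA8 changed sign with library totals (log2 -0.043) and without ORF1p RIP replicate 3, with a range of -0.11 to 0.14 over left-out libraries. L1PA7 did so without that replicate (-0.12 to 0.21) and the HERVK-int copy on chromosome 5 without mock IP replicate 2 (-0.22 to 0.018). None of these was called. Arthur1A (0.96) lost its call with library totals, and L1PBa1 gained one with library totals (-1.03) and without replicate 3 (-1.01). L1PA3 lost its call without replicate 3, and LTR5A with library totals and without mock IP replicate 2. The counts of loci called followed the number tested: 7363 higher and 11823 lower among 26082 loci with a summed count of 1000 or more, 103155 and 169339 among 1048627 with 20 or more, and 22150 and 59464 among the 143316 loci at 1 CPM or more in total RNA, an alternative chosen after seeing the data. Leaving out 1 library at a time gave 70 to 81 subfamilies higher and 88 to 100 lower, 48261 to 56951 and 92582 to 96448 loci, and 4166 to 4413 and 2729 to 2880 gene spans. The difference in the share of L1HS reads from long copies ranged from 17.1 to 18.2 percentage points. DESeq2 called 48752 loci higher and 122417 lower. For replicate numbers 1 to 3 the deviations of the libraries correlated at 0.246, -0.03 and -0.08. The labels do not say what a number marks, so whether libraries of the same number were pairs is unknown. A replicate block gave 78 subfamilies higher and 96 lower, 53528 and 97091 loci, and 4341 and 2954 gene spans. Repeats with few reads, and copies that are near-identical, are the least certain.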
